A study of Equus asinus with 6 samples.

Results

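The C1q/TNF-related proteins (CTRPs, encoded by the C1QTNF genes) and the angiopoietin-like proteins (encoded by the ANGPTL genes) are families of secreted proteins made largely by fat, stromal and vascular cells. The genes described here were chosen by name, with earlier results of these data known: C1QTNF1, C1QTNF2, C1QTNF3, C1QTNF6, C1QTNF7, ANGPTL1, ANGPTL2 and ANGPTL4. All 8 were listed, among 20873 genes in the table, and all 8 passed the filter on low counts that left 15933 genes for testing. The study sequenced back muscle (longissimus dorsi) from Guangling donkeys (Equus asinus) aged 24 months. It compared muscle with high intramuscular fat (IMF, the fat held within a muscle; 3 libraries, here H1 to H3 by replicate number) with low IMF muscle (3 libraries, L1 to L3). No treatment or genotype is given for either group, and the labels do not state that each library is a different animal. The p-values below therefore reflect only how these libraries vary, which may be technical variation.

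A CTRP has a collagen-like stalk followed by a globular C1q domain, the fold it shares with the fat hormone adiponectin, and it assembles into trimers. An angiopoietin-like protein has a coiled-coil stretch followed by a fibrinogen-like domain, like the angiopoietins, but does not bind the angiopoietin receptor TEK. ANGPTL4 is the best known of the set in muscle and fat: it is induced by fasting, fatty acids and hypoxia, partly through the PPAR receptors, and inhibits lipoprotein lipase (LPL), the enzyme that frees fatty acids from circulating triglyceride. In the deposited annotation the Pfam entry was a collagen triple helix repeat for C1QTNF1, C1QTNF3, C1QTNF6 and C1QTNF7, and the fibrinogen C-terminal domain for ANGPTL1 and ANGPTL2. The Pfam text of the ANGPTL4 and C1QTNF2 rows names other domains.

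The libraries held 39052998 to 47494157 reads assigned to genes. H1 stood apart from the other 5. The summed level of its Schwann cell markers was 3.71 CPM (counts scaled to a common, normalized library size, named for counts per 1e6 reads) against 57.6 to 128.5 CPM. That of its myofibre markers was 68750 CPM against 78690 to 137400, not far below H2. Within that list MYLPF was at 1496 CPM in H1 against 6647 to 9300, TNNT3 at 1667 against 5649 to 11060 and TNNI2 at 1579 against 6409 to 10710. ACTA1 and TTN in H1 lay inside the range of the other libraries. L2 and L3 were far closer to each other than any other pair of one group, with a chi-square per degree of freedom of 7.73 over genes against 197 to 570, yet they differed beyond sampling noise and were counted as 2 libraries.

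ANGPTL2 and C1QTNF6 were the members that stood highest in high IMF muscle relative to low. In CPM the groups did not overlap for these 2 members, though the deposited FPKM of C1QTNF6 was 0.17 in H3 and in L1 to L3. Among all genes tested, 6.86% had every high IMF library above every low one and 6.1% the reverse. In edgeR's quasi-likelihood test neither passed the adjusted p threshold of 0.05, and neither did any other member. Of all genes 0% passed in either direction. At an unadjusted p under 0.05 the same 2 members were called, against 7.27% of all genes. Of the 8 members, 5 had a positive log2 fold, where 51.2% of all genes had one. The median log2 fold of the 8 members was 0.54 and that of all genes 0.01. Because the members were chosen with earlier results of these data known, these comparisons with all genes describe them and test nothing. limma-voom likewise passed 0% of genes after adjustment, and at an unadjusted p under 0.05 it called ANGPTL2 alone among the members, against 6.97% of all genes. The DESeq2 Wald test called ANGPTL2 and C1QTNF6 as higher in high IMF muscle, where it called 0.68% of the genes it tested in that direction. The authors' deposited table called the same 2 members and 0.676% of its genes as higher. For the members, that table and the DESeq2 run gave log2 folds no more than 0.000453 apart, so the table adds no separate evidence.

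**Figure D1:**
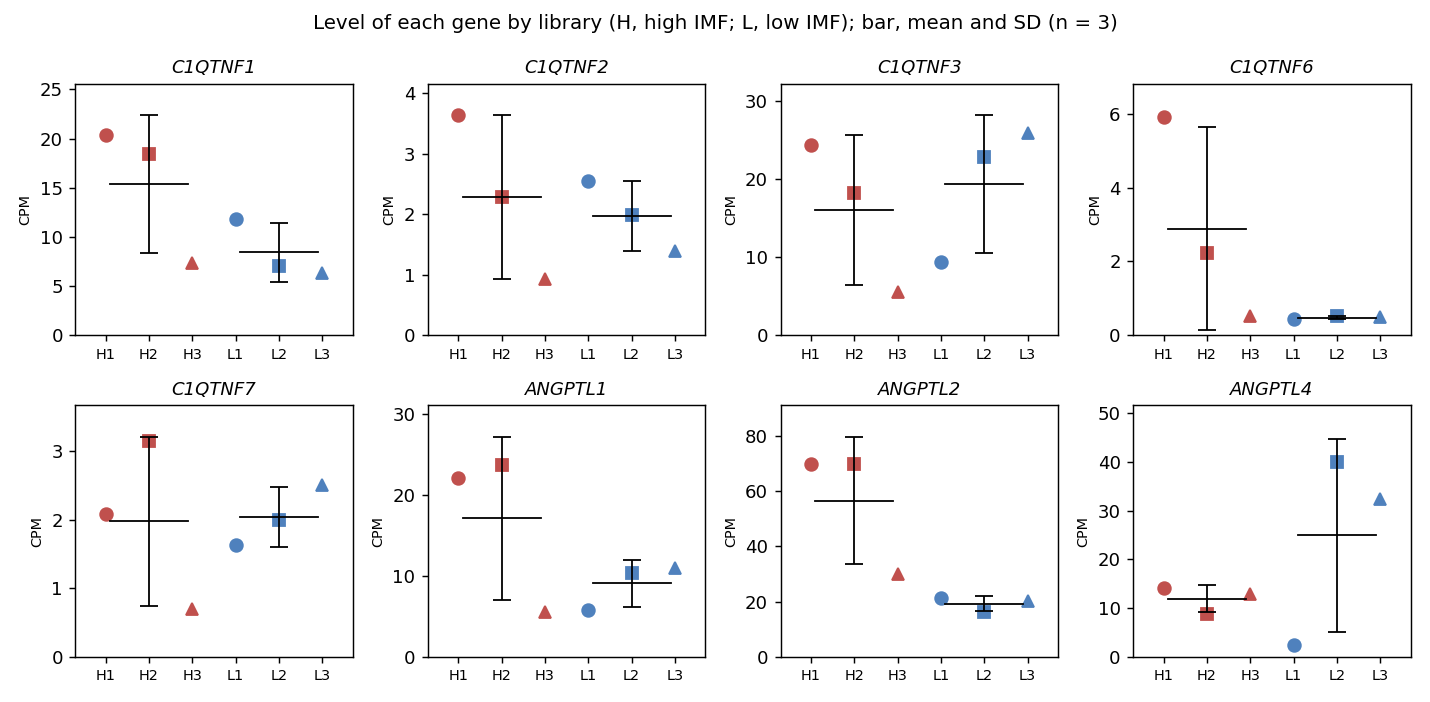
CPM of each of the 8 genes (vertical axis, linear) in the 3 high IMF libraries (H1 to H3, red) and the 3 low IMF libraries (L1 to L3, blue). Lines and bars are the mean and SD of 3 libraries. The 3 high IMF points of ANGPTL2, 30.1 to 70.0 CPM, lie above the 3 low IMF points, 16.2 to 21.4 CPM, whereas the ANGPTL4 points of low IMF muscle spread from 2.48 to 40.0 CPM.

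ANGPTL2, a secreted protein linked to inflammation and tissue remodelling in fat, measured 69.9, 70.0 and 30.1 CPM in H1 to H3 and 21.4, 16.2 and 20.3 CPM in L1 to L3. The first pair of high libraries were alike and H3 lay between them and the low group. The means were 56.6 ± 23.0 CPM in high and 19.3 ± 2.74 CPM in low IMF muscle (SD, n = 3 each). The fitted difference was 2.93-fold, a log2 fold of 1.55 with an SE of 0.33 and a 95% interval of 0.77 to 2.33. edgeR gave an unadjusted p of 0.00207, which ranked 61st of the 15933 genes, and an adjusted p of 0.504. The log2 fold stayed between 1.36 and 1.85 when each library was left out in turn, with an unadjusted p of at most 0.00998. Its adjusted p in the DESeq2 Wald test was 0.00481, and 0.00484 in the authors' deposited table. That DESeq2 call was kept in 3 of the 6 runs with 1 library left out. It was lost without H2 (adjusted p = 0.0984), without L2 (0.134) and without L3 (0.0713).

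ANGPTL1, an angiopoietin-like protein described as antiangiogenic, measured 22.05, 23.69 and 5.504 CPM in H1 to H3 and 5.774, 10.38 and 11.02 CPM in L1 to L3. H1 and H2 were above every other library and H3 was the lowest of the 6, so the groups overlapped. Its log2 fold was 0.92 (SE 0.53, 95% interval -0.33 to 2.16; edgeR adjusted p = 0.814). Without H3 it was 1.33, and the DESeq2 run without that library called it (adjusted p = 0.00864).

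ANGPTL4 went the other way in its group means and was the most uneven member within low IMF muscle. It measured 14.2, 8.82 and 12.9 CPM in H1 to H3 and 2.48, 40.0 and 32.4 CPM in L1 to L3. The high IMF libraries sat close together, while L1 was below all of them and L2 and L3 were above all of them. The means were 11.9 ± 2.79 CPM in high and 25.0 ± 19.8 CPM in low IMF muscle (SD, n = 3 each), and the log2 fold was -1.06 (SE 0.81, 95% interval -2.96 to 0.83; edgeR adjusted p = 0.874). limma-voom put the log2 fold at -0.30. Without L1 the edgeR log2 fold was -1.61 with an unadjusted p of 0.000517 and an adjusted p of 0.186, and the DESeq2 run without it called ANGPTL4 as lower in high IMF muscle (adjusted p = 1.95e-05). Without L2 the edgeR log2 fold was -0.55.

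In the donkey assembly EquAss-T2T_v2, used for names and neighbours only, ANGPTL2 overlaps RALGPS1, ANGPTL1 overlaps RALGPS2, and ANGPTL4 overlaps HNRNPM. How the authors' counting treated strand is not given in the sources used here, so reads of overlapping genes could be shared. RALGPS1 measured 9.40 ± 1.92 CPM in high and 8.65 ± 1.29 CPM in low IMF muscle, RALGPS2 9.58 ± 2.98 and 7.21 ± 1.37 CPM, and HNRNPM 163.5 ± 31.2 and 174.4 ± 14.9 CPM (SD, n = 3 each), with overlap between the groups for each. The long noncoding RNA LOC106844492, which also overlaps ANGPTL4, measured 0.464, 0.807 and 1.51 CPM in H1 to H3 and 0.1251, 1.697 and 1.362 CPM in L1 to L3. Like ANGPTL4 it was lowest in L1.

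C1QTNF6 (CTRP6), a CTRP described as a regulator of complement and of fat tissue inflammation, was counted with 268, 119 and 18 reads in H1 to H3 and 21, 21 and 20 reads in L1 to L3. These correspond to 5.92, 2.23 and 0.521 CPM and to 0.438, 0.509 and 0.486 CPM. H1 and H2 stood well above the rest, and H3 cleared the highest low library only after normalization, with fewer reads than any of them. In deposited FPKM (reads scaled by gene length and sequencing depth) H3 and the low IMF libraries were tied at 0.17. The means were 2.89 ± 2.76 CPM in high and 0.478 ± 0.0365 CPM in low IMF muscle (SD, n = 3 each), a 6.04-fold difference. The log2 fold was 2.59 (SE 0.80, 95% interval 0.71 to 4.48), with an unadjusted p of 0.0138 and an adjusted p of 0.541 in edgeR. It was 1.53 without H1 and 3.08 without H3. In the DESeq2 Wald test its adjusted p was 0.0474, and 0.0477 in the authors' deposited table. Of the 6 DESeq2 runs with 1 library left out, only the run without H3 kept the call. The other 5 gave adjusted p-values of 0.507 without H1, 0.161 without H2, and 0.114, 0.278 and 0.295 without L1, L2 and L3.

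C1QTNF1 (CTRP1), an adipokine whose levels rise in obesity and with inflammatory signals, measured 20.4, 18.4 and 7.30 CPM in H1 to H3 and 11.8, 7.06 and 6.32 CPM in L1 to L3. H3 lay inside the range of the low group. Its log2 fold was 0.87 (SE 0.42, 95% interval -0.12 to 1.86; edgeR adjusted p = 0.745), and 1.20 without H3. The DESeq2 run without that library called it (adjusted p = 0.0255). The KEGG text of this row in the deposited table names the enzyme of the neighbouring gene ENGASE, which has a row of its own at 11.7 ± 6.66 CPM in high and 9.05 ± 1.91 CPM in low IMF muscle (SD, n = 3 each).

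C1QTNF3 (CTRP3, also called cartducin), first described in cartilage and also made by fat and stromal cells, measured 24.4, 18.2 and 5.50 CPM in H1 to H3 and 9.30, 22.8 and 25.9 CPM in L1 to L3. In each group 2 libraries were high and 1 was low, namely H3 and L1. The log2 fold was -0.27 (SE 0.57, 95% interval -1.60 to 1.06; edgeR adjusted p = 0.963), and it became 0.14 without H3.

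C1QTNF7 (CTRP7) was counted with 24 to 168 reads per library and measured 2.08, 3.15 and 0.695 CPM in H1 to H3 and 1.626, 1.988 and 2.505 CPM in L1 to L3. Here too H3 was the lowest library. The log2 fold was -0.04 (SE 0.54, 95% interval -1.30 to 1.22; edgeR adjusted p = 0.993). It was 0.18 when library size alone was used for scaling, -0.56 without H2 and 0.35 without H3. The interval still allows a difference of more than 1 on the log2 scale in either direction.

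C1QTNF2 (CTRP2), a close relative of adiponectin, measured 3.65, 2.29 and 0.927 CPM in H1 to H3 and 2.54, 1.99 and 1.39 CPM in L1 to L3. The extremes were both high IMF libraries, with the low IMF values inside them. Its log2 fold was 0.22 (SE 0.52, 95% interval -1.01 to 1.44; edgeR adjusted p = 0.966), and it became -0.29 without H1. The protein description of this row in the deposited table is that of ZBED8, so which gene its reads belong to is uncertain. ZBED8 also has a row of its own, at 2.33 ± 0.589 CPM in high and 1.73 ± 0.264 CPM in low IMF muscle (SD, n = 3 each).

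**Figure D2:**
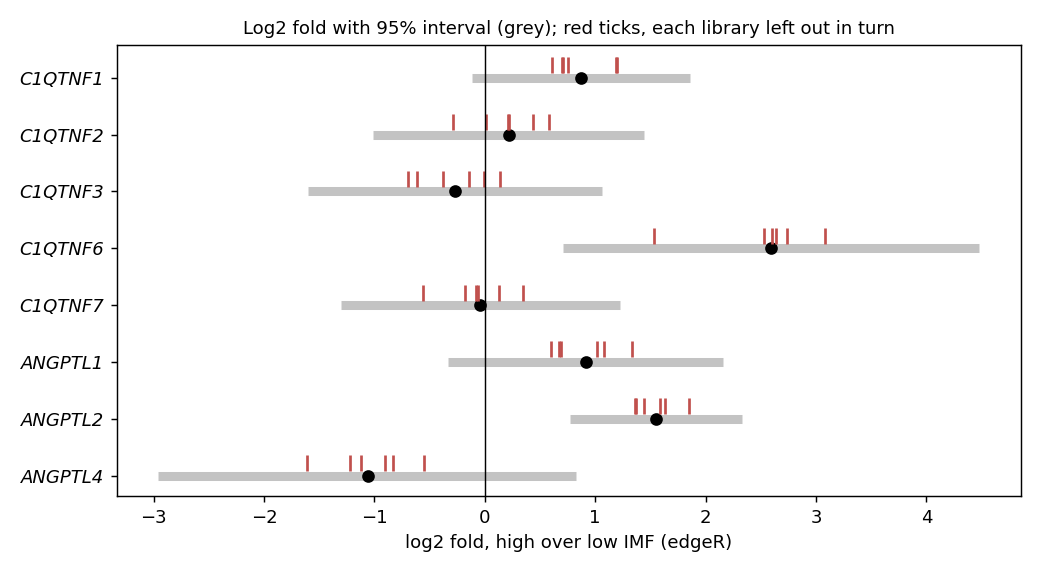
Log2 fold of high over low IMF from edgeR for each gene (black point, horizontal axis), with its 95% interval in grey and, as red ticks, the value with each of the 6 libraries left out in turn. The intervals of ANGPTL2 (0.77 to 2.33) and C1QTNF6 (0.71 to 4.48) lie above 0 and the other 6 cross it; p-values adjusted over all genes passed for none of the 8.

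To compare genes with each other, the deposited FPKM values (reads scaled by gene length and sequencing depth) were used. In high IMF muscle ANGPTL2 had the highest mean level, 16.8 ± 8.32 FPKM, followed by ANGPTL4 (6.73 ± 1.83), C1QTNF1 (5.68 ± 3.09), ANGPTL1 (5.47 ± 3.53), C1QTNF3 (5.41 ± 3.61), C1QTNF2 (2.04 ± 1.37), C1QTNF6 (1.23 ± 1.23) and C1QTNF7 (0.957 ± 0.645; SD, n = 3 for each). The range of every gene in this order overlapped that of the next, so no neighbours were separated. In low IMF muscle the order began with ANGPTL4 (12.3 ± 9.60 FPKM), C1QTNF3 (5.48 ± 2.28) and ANGPTL2 (5.02 ± 1.02). It went on with C1QTNF1 (2.74 ± 1.19), ANGPTL1 (2.45 ± 0.646) and C1QTNF2 (1.54 ± 0.545). At the low end C1QTNF2, C1QTNF7 (0.843 ± 0.146) and C1QTNF6 (0.17 FPKM in all 3 libraries) had separate ranges, and the neighbours above them overlapped.

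In all, 7 of the 8 members, all but ANGPTL4, were lower in H3 than in the other high IMF libraries, and for C1QTNF2, C1QTNF3, C1QTNF7 and ANGPTL1 that library was the lowest of all 6. The fibroblast, macrophage, endothelial and pericyte lists were also lowest in that library. The lymphocyte, smooth muscle, myofibre and Schwann lists were not. In H3 the endothelial markers summed to 364.7 CPM, against 613.6 to 813.1 CPM elsewhere, and the pericyte markers to 354.8 CPM, against 430.9 to 603.6 CPM. How many of all genes were lowest in H3 was not counted, so the low values there are not read as particular to the members. The 10 fibroblast markers, none of them at 0 in any library, summed to 1694, 1402 and 309.2 CPM in H1 to H3 and 364.5, 801.0 and 885.0 CPM in L1 to L3. All 10 had a positive log2 fold, with a median of 0.87, and 2 of them reached an unadjusted p under 0.05. Of all genes 51.2% had a positive log2 fold, and 4.53% reached that p in the higher direction. The same shares stand beside the marker lists that follow. The 5 macrophage markers summed to 102.5, 48.9 and 15.2 CPM in high and 22.3 to 28.0 CPM in low IMF muscle, and 4 of them had a positive log2 fold (median 1.19). The 5 T and B lymphocyte markers summed to 13.4, 9.72 and 9.04 CPM in H1 to H3 and 11.1, 4.12 and 2.97 CPM in L1 to L3. Of these, 4 had a positive log2 fold (median 1.46) and 2, CD3D and CD8B, reached an unadjusted p under 0.05 without overlap. Among all genes tested, 6.86% had every high IMF library above every low one. The 8 adipocyte markers summed to 330.5, 575.8 and 169.9 CPM in H1 to H3 and 266.3, 341.7 and 296.9 CPM in L1 to L3. Outside H2 this sum was made up largely of FABP4 and PNPLA2, whose log2 folds were -0.51 and -0.05. In H2 ADIPOQ (165.1 CPM) stood above PNPLA2 (149.8 CPM), and PLIN1 (108.0 CPM) above FABP4 (93.8 CPM). Apart from FABP4 and PNPLA2, the other 5 of the 7 tested had a positive log2 fold. The list's median was 1.93, and 2 genes, CIDEA and CIDEC, reached an unadjusted p under 0.05. CIDEA also passed in DESeq2 (adjusted p = 0.0440), but not without H1 (0.0519), H2 (0.745), L1 (0.116) or L3 (0.301). By the median of its genes' log2 deviations this list was lowest in L1 (-2.55), followed by H3 (-0.95). LEP was at 0 in L1 and ADRB3 in H3 and L1. In whole muscle, fewer cells of a type and less RNA per cell cannot be told apart, and the part of these cells in the members' differences was not tested.

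Over the 6 libraries, which share 1 normalization, ANGPTL1 followed the fibroblast list most closely of the 8 members (Pearson r = 0.97 on the log2 scale), followed by C1QTNF3 (0.85) and C1QTNF7 (0.83). ANGPTL1 was also at 0.94 with the pericyte and 0.90 with the adipocyte list. ANGPTL2 was at 0.62 with the fibroblast, 0.78 with the pericyte and 0.71 with the lymphocyte list, and C1QTNF1 at 0.60, 0.84 and 0.81. C1QTNF6 was at 0.92 with the macrophage, 0.86 with the pericyte and -0.91 with the myofibre list. With the myofibre list C1QTNF1 was at -0.82, C1QTNF2 at -0.78, ANGPTL2 at -0.74 and ANGPTL1 at -0.64. C1QTNF3 was at -0.36 with it, C1QTNF7 at -0.29 and ANGPTL4 at 0.20. The myofibre level was lowest in H1 (-1.39), where MYLPF, TNNT3 and TNNI2 were low but ACTA1 and TTN were not. All members but ANGPTL4 lay between 0.65 and 0.94 with the pericyte list and between 0.60 and 0.92 with the macrophage list, where ANGPTL4 was at -0.07 and 0.13. How many of all genes lay in those ranges was not counted, so these values are not read as particular to the members. The pericyte level, a median of 4 genes, moved only from -0.31 in H3 to 0.23 in H2. RGS5, the most abundant of these genes, had a log2 fold of -0.36. The list's sum was highest in L1 (603.6 CPM), where its median was -0.12. ANGPTL4 was at 0.29 with fibroblasts and 0.70 with smooth muscle markers, which summed to 277.9, 430.3 and 291.2 CPM in H1 to H3 and 325.1, 981.4 and 796.1 CPM in L1 to L3. All 4 smooth muscle markers had a negative log2 fold, and the myosin gene MYH11 measured 41.2, 89.3 and 25.5 CPM in H1 to H3 and 85.8, 316.8 and 252.8 CPM in L1 to L3. Among the members themselves, ANGPTL2 and C1QTNF6 were the closest pair (r = 0.91), and C1QTNF1 was at 0.87 with each of them. C1QTNF3 and C1QTNF7 were at 0.85. These values describe 6 libraries and carry no test.

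**Figure D3:**
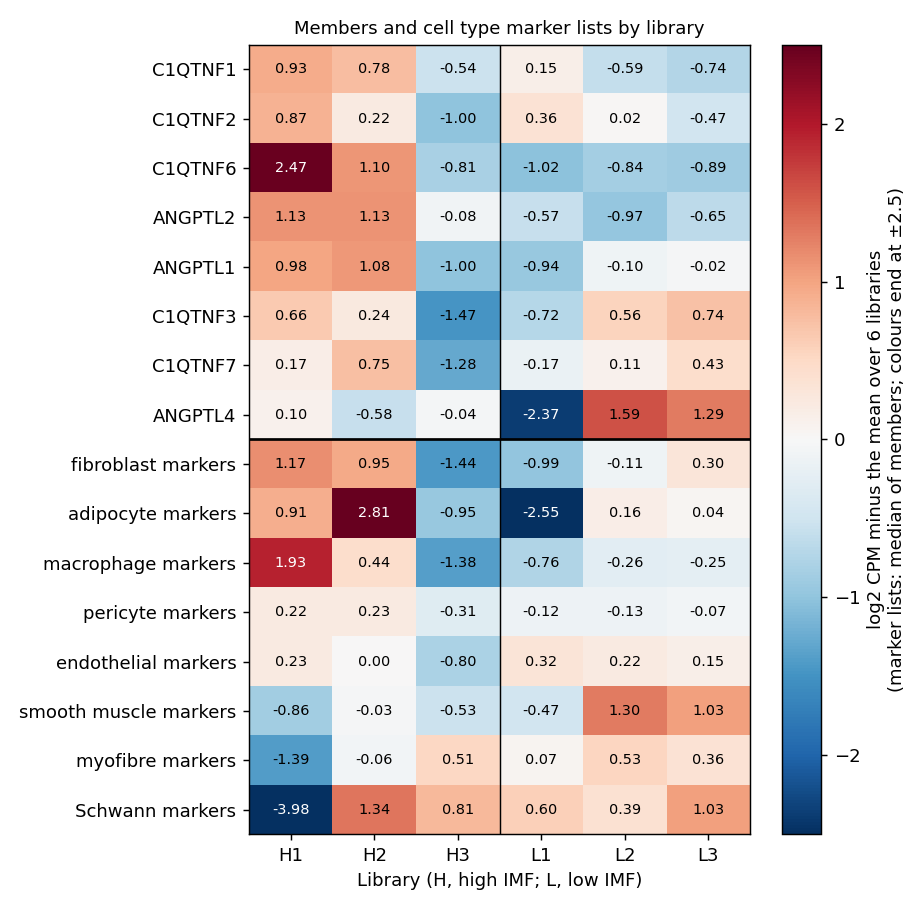
Log2 CPM of each gene minus its mean over the 6 libraries, and below the line the median of the same quantity over each list of cell type markers, by library (columns). H3 is low for the fibroblast (-1.44), macrophage (-1.38) and endothelial (-0.80) lists and for most of the genes. Among the 8 genes ANGPTL4 alone is at -2.37 in L1 and above 1 in L2 and L3.

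The genes whose pattern over the 6 libraries was most like that of a member were found among 9810 genes with a symbol and a mean of at least 5 CPM. For ANGPTL2 these were the matrix protein gene TGFBI (r = 0.990) and DPY19L1 (0.987). For ANGPTL1 they were PAPSS1 (0.994) and SMARCAD1 (0.992), for ANGPTL4 BTG1 and SCARB2 (both 0.987), and for C1QTNF3 the scavenger receptor gene COLEC12 (0.995) and the laminin chain gene LAMA2 (0.992). For C1QTNF6 they were FBXL19 (0.994) and CLEC3B (0.992), for C1QTNF7 SDCBP (0.995) and ATL3 (0.990), for C1QTNF1 ADAR (0.989) and FAM208B (0.988), and for C1QTNF2 JRK and CCDC82 (both 0.996). With 6 libraries such values are common: 32 to 103 of the 9810 genes exceeded 0.95 for any one member. TGFBI, the gene nearest to ANGPTL2, had a log2 fold of 1.67.

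ANGPTL4 is set here beside the lipase it inhibits, at the level of RNA only. LPL measured 336.4, 216.5 and 123.7 CPM in H1 to H3 and 206.3, 114.4 and 110.3 CPM in L1 to L3. L2 and L3, the pair closest to each other, had the most ANGPTL4 and the least LPL. The other libraries did not follow that order. H1 had the most LPL and more ANGPTL4 than H2, H3 or L1, and L1, with the least ANGPTL4, had less LPL than H1 or H2. Per 100 LPL reads there were 4.21, 4.07 and 10.4 ANGPTL4 reads in H1 to H3 and 1.202, 34.94 and 29.42 in L1 to L3. GPIHBP1, the endothelial protein that carries LPL to the capillary surface, measured 14.4, 10.5 and 9.91 CPM in H1 to H3 and 21.6, 19.5 and 19.8 CPM in L1 to L3, without overlap. It had the smallest p of the lipase list (log2 fold -0.81; edgeR adjusted p = 0.510; DESeq2 adjusted p = 0.0564). The log2 fold of GPIHBP1 lay between -1.01 and -0.71 with 1 library left out, and DESeq2 called it without H1 (adjusted p = 0.000414). Of the 6 endothelial markers, 5 had a negative log2 fold (list median -0.47), and PECAM1 and CLDN5 also had every low library above every high one. Among all genes tested, 6.1% had every low IMF library above every high one. The endothelial list summed to 743.3, 613.6 and 364.7 CPM in H1 to H3 and 813.1, 707.4 and 704.5 CPM in L1 to L3. KDR (log2 fold 0.25) and CDH5 (-0.26) were both highest in H1. The part of endothelial cells in the difference of GPIHBP1 was not tested. Of the 7 lipase system genes tested, 3 had a positive and 4 a negative log2 fold. GPIHBP1 alone reached an unadjusted p under 0.05, in the lower direction, where 2.74% of all genes did, and 0 did in the higher direction, where 4.53% of all genes did. The lipase maturation factor LMF1 measured 14.6 ± 3.19 and 19.6 ± 7.21 CPM, and PCSK6, a protease that can cleave angiopoietin-like proteins, 29.2 ± 22.8 and 16.9 ± 5.50 CPM (SD, n = 3 each).

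ANGPTL8, another secreted regulator of lipoprotein lipase, was at the limit of detection. It had 0 reads in each high IMF library, 0 in L1 and 2 and 5 reads in L2 and L3. A count of 0 allows up to 3 reads, or 0.0632 to 0.0768 CPM on total reads, counting error only.

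Among 15 tested genes of the list of PPAR factors and fasting-induced targets, the class of genes to which ANGPTL4 belongs, 9 had a positive and 6 a negative log2 fold (median 0.15), and 1, the fatty acid transporter CD36, reached an unadjusted p under 0.05 in the lower direction (log2 fold -0.75; edgeR adjusted p = 0.510; DESeq2 adjusted p = 0.0417). That DESeq2 call of CD36 was lost without H2 (adjusted p = 0.249), L1 (0.0774), L2 (0.237) or L3 (0.219). Of all genes 51.2% had a positive log2 fold, and 2.74% reached an unadjusted p under 0.05 in edgeR in the lower direction. UCP3, a mitochondrial carrier induced by fasting, had the same uneven low group as ANGPTL4. It measured 24.0, 81.6 and 145.8 CPM in H1 to H3 and 4.002, 309.5 and 319.6 CPM in L1 to L3. The mitochondrial kinase gene PDK4, also induced by fasting, measured 171.4, 6.02 and 3.85 CPM in H1 to H3 and 10.4, 77.2 and 71.2 CPM in L1 to L3. Its low IMF libraries stood in the same way, but its highest level was in H1. The fatty acid binding protein gene FABP3 measured 219.8 ± 103.1 CPM in high and 159.9 ± 15.6 CPM in low IMF muscle (SD, n = 3 each), with overlap.

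**Figure D4:**
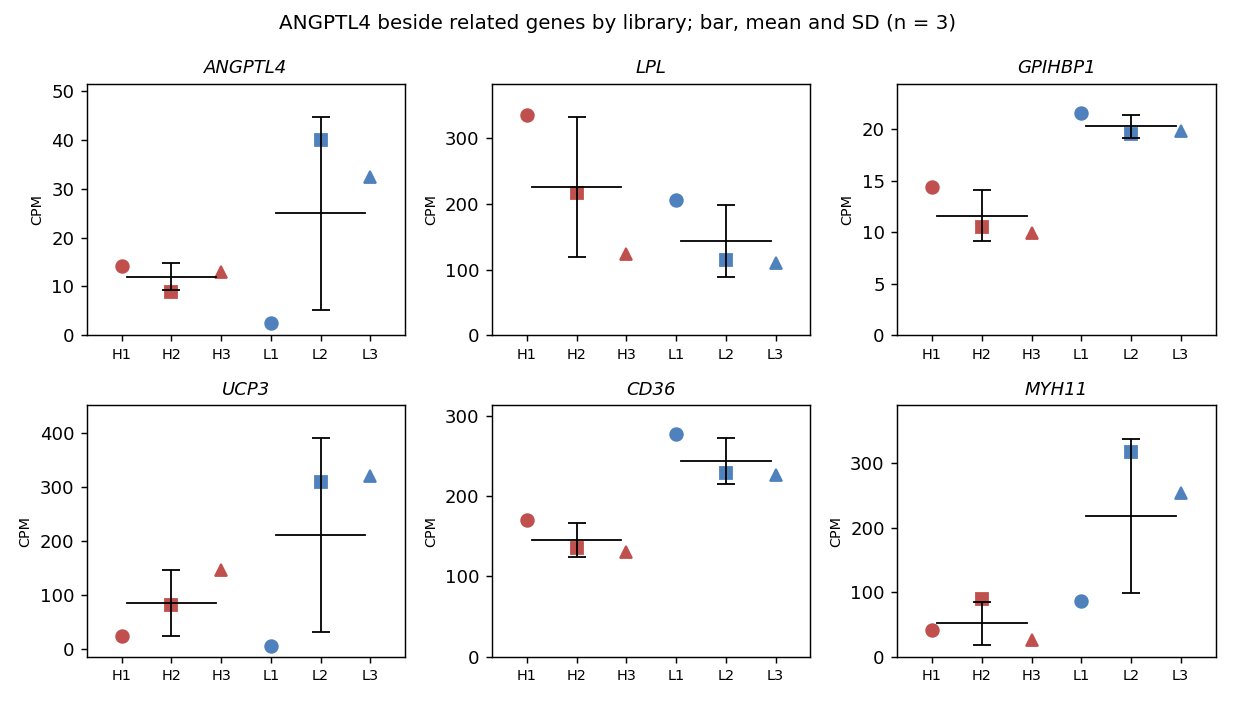
CPM by library (vertical axes, linear) of ANGPTL4, LPL, GPIHBP1, UCP3, CD36 and the smooth muscle gene MYH11 in high (H1 to H3, red) and low IMF muscle (L1 to L3, blue), with the mean and SD of 3 libraries. ANGPTL4 and UCP3 are lowest in L1 and highest in L2 and L3, while GPIHBP1 and CD36 are higher in all 3 low IMF libraries than in any high one.

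Other genes of the 2 domain families were described from lists. Of 25 other genes with a C1q domain, 21 were in the table and 14 were tested. Of these, 10 had a positive log2 fold (median 0.79), 1 reached an unadjusted p under 0.05 in the higher and 0 in the lower direction. That gene was C1QTNF5 (CTRP5), which measured 29.0, 21.3 and 18.4 CPM in H1 to H3 and 14.84, 11.03 and 12.30 CPM in L1 to L3. The groups did not overlap (log2 fold 0.85; edgeR adjusted p = 0.522; DESeq2 adjusted p = 0.104). For C1QTNF5 DESeq2 made a call without H3 (adjusted p = 0.0148) or L1 (0.0422). Of all genes 51.2% had a positive log2 fold, and 4.53% reached an unadjusted p under 0.05 in edgeR in the higher direction. Every high IMF library lay above every low one for 6.86% of all genes. The complement genes C1QA and C1QC, made by macrophages, both peaked in H1, at 58.95 and 52.16 CPM. C1QA averaged 28.2 ± 27.0 CPM across high and 10.2 ± 1.35 CPM across low IMF libraries, and C1QC 24.9 ± 24.1 and 8.66 ± 0.932 CPM (SD, n = 3 each). The collagen VIII chain COL8A2 measured 4.59 ± 2.01 and 2.33 ± 0.890 CPM. Of 17 other angiopoietin-like and fibrinogen-domain genes, 16 were in the table and 11 were tested, 8 with a positive log2 fold (median 0.71). The elastic fibre protein gene MFAP4 alone reached an unadjusted p under 0.05, at 52.5 ± 28.7 CPM in high and 23.8 ± 2.34 CPM in low IMF muscle (SD, n = 3 each; edgeR adjusted p = 0.639). The unadjusted p of MFAP4 was 5.80e-05 without H3 and 0.0635 to 0.131 without any other library. The tenascins went both ways, TNXB at 216.7 ± 129.9 and 104.3 ± 11.6 CPM and TNC at 7.46 ± 4.26 and 18.6 ± 13.1 CPM, with overlap for both. TNR was higher in every high IMF library, at 0.359 ± 0.0436 against 0.161 ± 0.0370 CPM (SD, n = 3 each; log2 fold 1.14; edgeR adjusted p = 0.719). Like the members other than ANGPTL4, TNXB, MFAP4 and COL8A2 had H3 as the lowest high IMF library.

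Receptors and binding partners of these proteins were described from another list. All 15 found in the table were tested, 6 with a positive and 9 with a negative log2 fold (median -0.04), and 0 reached an unadjusted p under 0.05. The adiponectin receptors ADIPOR1 and ADIPOR2 overlapped between the groups. ADIPOR1 was at 77.3 ± 3.24 CPM in the high and 79.8 ± 13.9 CPM in the low group, and ADIPOR2 at 59.8 ± 16.1 and 48.0 ± 3.97 CPM (SD, n = 3 each). The integrin chain ITGAV measured 46.0 ± 11.5 and 33.9 ± 3.49 CPM without overlap (log2 fold 0.44, edgeR adjusted p = 0.734). Its margin was narrow, 38.24 CPM in H3 against 37.79 CPM in L3, and the deposited FPKM values overlapped (4.75 in H3 and 4.94 in L3). The relaxin receptor RXFP1 measured 0.965 ± 0.671 and 0.361 ± 0.0484 CPM. On the lower side without overlap were the lysosomal membrane protein gene LAMP1 (274.8 ± 26.3 and 341.2 ± 33.1 CPM) and the adhesion receptor ADGRB3 (0.511 ± 0.410 and 1.04 ± 0.0574 CPM). ADGRB3 was apart only after normalization, at 0.9755 CPM in H2 against 0.9797 CPM in L1. H2 held 52 reads of ADGRB3, against 47, 43 and 45 reads in L1 to L3. Among all genes tested, 6.86% had every high IMF library above every low one and 6.1% the reverse. The angiopoietin receptor TEK measured 39.6 ± 18.4 and 54.7 ± 1.29 CPM with overlap.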

How the data were processed

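Read counts per gene were deposited by the authors as whole numbers. The submitters' processing notes name HISAT2 and the genome build mm9, a mouse build, although the table names donkey and horse genes. The genome used is therefore uncertain, and no coordinates or sequences are given. No source used here names the counter, its annotation or its strand setting. FPKM values, as deposited by the authors, entered no test. The authors also deposited a fold change as a ratio and as log2, with p-values, quoted only where that table is named. Per-sample files equalled the series' table (0 cells differed).

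Of 20873 genes, 726 carried an identifier only (0.704% of reads). Counts were fitted across all genes with edgeR 4.0.16 in R 4.3.3 (TMM scaling, filterByExpr, quasi-likelihood F-test, 3 against 3 libraries, Benjamini-Hochberg over 15933 genes holding 99.96% of reads). CPM uses TMM-adjusted library sizes. Levels by library are log2(CPM + 0.1). Group and replicate numbers came from the sample titles. Same-numbered libraries of the groups were not treated as pairs in the main fit. Their deviations from the group means correlated at 0.196, 0.149 and 0.0197. Different-numbered libraries were not correlated for comparison, so these values can neither show nor exclude a pairing.

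Alternatives were DESeq2 1.42.0 (size factors and Wald test), limma 3.58.1 (voom), library size only, no filter, a stricter filter, a replicate block, leaving out each library, and summing L2 and L3. The fits were tested on simulated data with the same dispersion for every gene and no outlying library. That run does not gauge how the fits behave on libraries as uneven as these. The members and lists were chosen with earlier results of these data known. Named genes are all 8 members, up to 4 genes of smallest p from each list (UCP3 included), and the 2 genes most like each member. PDK4, PECAM1, CLDN5, MYH11, LEP, ADRB3, FABP4, PNPLA2, CIDEA, CIDEC, CD3D, CD8B, ADIPOR1, ADIPOR2, TEK, ANGPTL8 and the genes that overlap a member or share its annotation were named after their values were seen. So were KDR, CDH5, ADIPOQ, PLIN1, MYLPF, TNNT3, TNNI2, ACTA1 and TTN. Some genes of these lists are not reported here by name.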

Additional observations from a re-analysis of the deposited data

How the results depend on the processing

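The adjusted p of each member stayed above 0.05 in edgeR and limma-voom under every setting run. The number of genes called was 0 in edgeR, 0 in limma-voom and 194 in the DESeq2 Wald test, and 0 to 3 in edgeR with 1 library left out. DESeq2 put ANGPTL2 at 1.54 and C1QTNF6 at 2.58 on the log2 scale, past its threshold. With 1 library left out, runs chosen after seeing the data, DESeq2 called 61 to 623 genes. It called 61 without L2, 73 without L3, 301 without H1, 430 without L1 and 623 without H3. Members with an unadjusted p under 0.05 numbered 2 in edgeR, 1 in limma-voom, and 1 to 4 with 1 library left out (1 without H1, 4 without H3 and 4 without L1). The share of all genes at that p moved too, from 7.27% to 8.3% without H1, 12.5% without H3 and 9.11% without L1, and to 4.32% and 4.6% without L2 and L3, so these counts are not read as results about the members.

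ANGPTL1, ANGPTL2, ANGPTL4, C1QTNF1 and C1QTNF6 kept their direction under all settings run. The direction of the other 3 members turned. C1QTNF7 had a log2 fold of 0.18 with library size only and of 0.03 with L2 and L3 summed. With 1 library left out C1QTNF7 ranged from -0.56 to 0.35 in edgeR and in DESeq2, C1QTNF2 from -0.29 to 0.58 in edgeR and to 0.57 in DESeq2, and C1QTNF3 from -0.70 to 0.14 in edgeR and from -0.71 to 0.13 in DESeq2. The cause was not tested. Scaling by library size alone shifted the median over all genes from 0.01 to 0.15 (log2 fold) and the median over the 8 members from 0.54 to 0.73. With the replicate block the log2 fold was 1.47 for ANGPTL2 (edgeR adjusted p = 0.476), 2.06 for C1QTNF6 and -0.55 for ANGPTL4, and 0 genes passed. C1QTNF6, C1QTNF2 and C1QTNF7 rest on 18 to 268 reads per library, which limits their precision.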

Other observations

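Hypoxia is another known inducer of ANGPTL4. Of 11 hypoxia targets tested, 4 had a positive and 7 a negative log2 fold (median -0.20). At an unadjusted p under 0.05, the prolyl hydroxylase EGLN3 and the kinase PDK1 were higher in high IMF muscle. The mitophagy receptor BNIP3 and the vascular peptide gene ADM were lower. Of all genes, 4.53% reached that p in the higher and 2.74% in the lower direction. None of these targets passed edgeR's adjusted threshold (adjusted p = 0.618 to 0.639). ADM measured 10.27, 15.98 and 23.14 CPM in H1 to H3 and 17.9, 49.6 and 48.7 CPM in L1 to L3, with L2 and L3 above the rest, as for ANGPTL4. EGLN3 measured 58.1, 18.2 and 118.7 CPM against 30.9, 14.9 and 15.2 CPM, with L2 and L3 at the bottom.

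Levels were also set relative to the fibroblast list, a scale chosen after the values were seen and given with no test. The list was at -1.44 in H3 and -0.99 in L1, so subtracting it raised every gene most in those libraries. The share of all genes apart on this scale was not computed, so the values are not read as results about the members. The log2 deviation of C1QTNF6 minus that of the list was 1.30, 0.14 and 0.63 in H1 to H3 and -0.03, -0.73 and -1.19 in L1 to L3. The groups of C1QTNF6 did not overlap, by a narrow margin between H2 and L1. C1QTNF3 lay the other way on this scale, at -0.51, -0.72 and -0.03 in H1 to H3 and 0.26, 0.67 and 0.44 in L1 to L3. ANGPTL2 overlapped between the groups on it, at -0.03, 0.18 and 1.36 in H1 to H3 and 0.42, -0.86 and -0.95 in L1 to L3.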
